A study of Macaca mulatta with 38 samples.

Results

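The T library of day 32 was the earliest T-cell sample in a study that followed barcoded blood stem and progenitor cells in 1 rhesus macaque. Its barcodes were chosen by their counts in that library: every sequence with a count above 0 was taken, which gave 525 of the 44423 barcodes in the table. The animal, ZL34, was a male of 4 years. Its CD34+ cells were collected after G-CSF and AMD1300 (as the labels spell it), transduced at a multiplicity of infection of 25 with a barcoded lentiviral library and reinfused after TBI, and it received cidofovir at 5 mg/kg each week. All 38 libraries share this history and come from peripheral blood, with 9 libraries labelled T, 8 labelled B, 7 each labelled Gr and Mono, 5 labelled nRBC, and 1 each labelled EOS and CD34p. Libraries of T, B, Gr and Mono were available at day 32, and later T libraries at days 119, 187, 266, 365, 393, 494, 536 and 553. There is 1 library per lineage and day, so spreads are over serial days of 1 animal and not over animals. No control without barcodes was analysed here, and the sort behind each lineage label was not given in the sources used here.

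A lentiviral vector inserts its barcode into the genome of the transduced cell, and every descendant of that cell inherits it. T cells mature in the thymus from progenitors that arrive from the marrow, and new T cells are known to return to the blood late after irradiation, after granulocytes and monocytes. T cells are also long-lived and can expand by division in the blood and lymphoid organs, so a barcode can stay in T cells after its progenitor has stopped giving other lineages. A share of reads does not tell the number of cells with a barcode apart from the number of vector copies per cell. No count from 1 to 100 occurs in the table, so "listed" here means a count above 100 and a listed 0 is taken as 100 reads or fewer. That limit is inferred from the counts. It equals 0.00582% of the T library of day 32, which held 1718938 reads of kept barcodes, and column sums of all libraries ran from 766039 to 3832849.

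The sequences below are the 3 most abundant members at day 32, the 2 members listed in every later T library, 3 members with high later shares in B, Gr or Mono, a member that was later listed in nucleated red cells, and the member with the lowest count. They are printed 5′ to 3′ as deposited, and capitals mark the bases between the constant start of 6 bases and the start of the sequencing adapter. Barcodes are numbered from the highest mean percent of reads downward, with all 38 libraries averaged.
bc87: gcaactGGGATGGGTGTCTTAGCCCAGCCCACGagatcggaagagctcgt
bc155: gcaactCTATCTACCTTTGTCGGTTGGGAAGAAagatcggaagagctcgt
bc216: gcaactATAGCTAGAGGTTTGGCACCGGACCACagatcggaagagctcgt
bc119: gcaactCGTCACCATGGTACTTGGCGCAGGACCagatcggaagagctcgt
bc185: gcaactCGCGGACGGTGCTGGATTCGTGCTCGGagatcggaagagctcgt
bc148: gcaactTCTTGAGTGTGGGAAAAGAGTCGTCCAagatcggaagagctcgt
bc131: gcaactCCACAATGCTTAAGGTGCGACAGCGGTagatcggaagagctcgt
bc205: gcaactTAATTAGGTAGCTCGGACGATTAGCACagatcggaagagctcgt
bc217: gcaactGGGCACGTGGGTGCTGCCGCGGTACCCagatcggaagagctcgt
bc32796: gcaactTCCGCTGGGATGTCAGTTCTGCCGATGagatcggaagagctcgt

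The members were compared with each other position by position, and inserted or deleted bases were not examined. Any 2 of the 525 differed at 9 or more of their 50 bases, and any member differed from every other barcode in the table at 7 or more. In base composition they were close to the rest. The bases between the start and the adapter had a GC content of 53.4% ± 9.99 in 505 members and 53.4% ± 9.80 in 42754 other barcodes (SD over barcodes, which are not replicates). The start GCAACT was found in 515 of 525 members (98.1%), against 98.5% of the other barcodes, and the adapter began after 33 bases in 77.9% of members and 79.3% of the others.

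Most barcodes of the day 32 T library held nearly the same number of reads. The median was 3459 reads (0.201% of the library), with quartiles of 3016 and 3727 reads, and 404 of the 525 members (77.0%) lay within 25% of the median. 347 members had at least 3000 and under 4000 reads. A smaller group of 36 had at least 1500 and under 2000 reads, and 31 had under 1000. At the upper end no member had between 4755 and 6133 reads, and 17 members lay above that gap, with a median of 7163 reads and 7.94% of all reads between them. Counts thus sat around one common level, with smaller groups apart from it below and above. These counts are the ones the members were chosen by, so they are a description and carry no test.

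No barcode dominated the T library of day 32. bc87 was the most abundant with 18336 reads (1.07%), bc155 the next with 11959 reads (0.696%) and bc216 the third with 8661 reads (0.504%). bc225 had 0.453% and bc332 0.438%. The 10 most abundant members held 5.28% of reads together, and 206 members were needed to reach 50%. Nearest to the limit inside it was bc32796 with 107 reads (0.00622%), and the sequences outside it are all listed at 0.

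The effective number of barcodes, which is e raised to the Shannon entropy of the shares, came to 479 for the 525 barcodes listed, or 91.3% of the number listed. The other day 32 libraries listed many more barcodes, and the same measure gave 90.9% in B, 91.3% in Gr and 86.6% in Mono. Their median counts were 125, 141 and 150 reads, near the limit of 100, against 3459 in T. Barcodes below that limit are not in these values, so they are not directly comparable with T. Later T libraries were far less even, at 4.10% to 16.3% of the number listed. The highest count was 5.30 times the median in T of day 32, against 253 to 1593 times in the later T libraries. Besides these median counts, libraries of day 32 differ in how many barcodes they list, with 525 in T, 15815 in B, 8820 in Gr and 10210 in Mono. The number of cells behind each library was not given in the sources used here.

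Of the 525 day 32 T barcodes, 278 were also listed in B, Gr or Mono on the same day. 31 of them were listed in all 3, and 247 (47.0%) of the members in none. These counts have no share over all barcodes beside them, which is given only for each lineage singly. Of the 8354 barcodes listed in T at day 119 and not at day 32, 3783 were likewise in none of the 3. Being in none is therefore not read as a trait of the members. In B, 174 members were listed, which is 33.1% of the members and 1.10% of the B list, and 35.6% of all barcodes were listed there. In Mono it was 131 members, or 25.0% of the members and 1.28% of the Mono list, beside 23.0% of all barcodes. In Gr it was 123 members, or 23.4% of the members and 1.39% of the Gr list, beside 19.9% of all barcodes. All 3 shares are near the shares for all barcodes, so they say little about the members as such.

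Shared members had counts near those of the other barcodes in these libraries. They held 1.28% of B reads, 1.50% of Gr reads and 1.49% of Mono reads at day 32. Their median count was 133 in B, against 125 over all barcodes of that library, 145 against 141 in Gr and 163 against 150 in Mono, and the highest share of any member was 0.0255% in B, 0.110% in Gr and 0.126% in Mono. Counts this close to the limit of 100 mean that a barcode slightly lower would be listed at 0, so the overlap is a lower bound. Among shared members the T count did not track the count in the other lineage, with Spearman's rho of 0.13 over 174 barcodes in B, 0.08 over 123 in Gr and 0.05 over 131 in Mono, given as a description. The most abundant T members show both outcomes. bc87 and bc155 were listed in no other day 32 library, bc216 was listed in Mono (362 reads, 0.0188%), and bc225 in Mono (456 reads, 0.0237%) and Gr (236 reads, 0.0164%).

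Among the other 3 libraries of day 32, the overlap of Gr with Mono lay well above the shares for all barcodes. Of the Gr barcodes 37.3% were listed in Mono, beside 23.0% of all barcodes, and of the Mono barcodes 32.2% were listed in Gr, beside 19.9%. The pairs with B lay at or below the shares for all barcodes. 34.8% of Gr and 32.9% of Mono barcodes were listed in B, beside 35.6% of all, and of the B barcodes 19.4% were listed in Gr and 21.2% in Mono. With 1 library each these percentages have no test.

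Nearly all of the day 32 T barcodes fell to low shares or below the limit in T cells by day 119 and stayed there. Together they held all T reads at day 32. On the 8 later T days, in order of time, they held 0.651%, 0.490%, 0.403%, 0.350%, 0.502%, 0.236%, 0.368% and 0.255%. For the first of these the exact 95% interval was 0.642 to 0.661%, for counting error only. No member again reached its own day 32 share in any later T library, and the highest later T share of any member was 0.0647%. 494 of the 525 members had at least 0.05% of reads at day 32, and 2 members reached that level in a later T library. No share over all barcodes stands beside this count. The members held all T reads at day 32 because that library chose them, so the fall from that value is a description. The later T libraries list 1019 to 8450 barcodes, against 525 at day 32, and each share is a part of the whole. How much of the fall goes with the longer lists was not tested.

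188 of the 525 members (35.8%) were listed in at least 1 later T library, against 39.1% of all barcodes in the table. By day, 96 members (18.3%) were listed at day 119, beside 19.0% of all barcodes. 25 (4.76%) were listed at day 187 beside 4.86%, 51 (9.71%) at day 266 beside 10.3%, and 37 (7.05%) at day 365 beside 7.95%. 69 (13.1%) were listed at day 393 beside 13.3%, 9 (1.71%) at day 494 beside 2.29%, 48 (9.14%) at day 536 beside 10.3%, and 37 (7.05%) at day 553 beside 7.07%. The lowest counts came in the T library of day 494, which has the fewest reads, 766039. On each of the 8 days the member share lay below that of all barcodes, by 0.0253 to 1.20 percentage points, so being listed in T at day 32 went with no higher rate of later listing in T. A sequence enters the table only by being listed somewhere, and one absent at day 32 must be listed later, which raises the figure for all barcodes.

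Against the other day 32 lists, which carry no such condition, the members sat between B and the myeloid lineages. 32.0% of the B barcodes of day 32 were listed in a later T library, 40.9% of the Gr barcodes and 43.3% of the Mono barcodes, beside the 35.8% of T barcodes. By day the T barcodes were listed in later T libraries less often than the Gr and the Mono barcodes on 8 of 8 days, and more often than the B barcodes on 6 of 8 days. These sets share barcodes and were compared after their values were seen, so no test was made.

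Of the 188 members in later T, 98 (52.1%) were listed in 1 later T library, beside 61.0% of all barcodes with a later T listing. The other members were listed in more, 42 in 2, 28 in 3, and 6 each in 4, 5 and 6. Of all members, 8% were in 2, 5.33% in 3 and 1.14% in 4, beside 7.08%, 3.16% and 1.68% of all barcodes. For 5 and 6 it was 1.14% each, beside 1.12% and 0.873%. No member was listed in 7, beside 0.687% of all barcodes. 2 members, bc119 and bc185, were listed in all 8, which is 0.381% of the members, beside 0.651% of all barcodes. In T, bc119 held 0.215% at day 32, and 0.0153%, 0.0528%, 0.0296%, 0.0205%, 0.0156%, 0.0518%, 0.0380% and 0.0301% on the 8 later days in order. bc185 held 0.171% at day 32 and then 0.0130%, 0.0177%, 0.0216%, 0.0328%, 0.0647%, 0.0312%, 0.0348% and 0.00427%. Both were always below their day 32 level and neither moved steadily in one direction. They were also listed in B of day 32, at 0.0105% and 0.00883%.

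The other members with high later T shares were listed in T on only some days. bc248 averaged 0.0154% ± 0.0161 over the 8 later T libraries (SD over days, n = 8) and was listed in 5 of them, with its highest T share of 0.0383% at day 393. bc667 averaged 0.0145% ± 0.0148 and was listed in 5, with 0.0377% at day 119. bc628 averaged 0.00836%, bc264 0.00815%, bc321 0.00798% and bc652 0.00684% of later T reads. High later T shares were not confined to the most abundant members of day 32. bc652 had 0.114% at day 32, below the median member, and of the 5 most abundant members bc225 alone was listed in later T, at 0.00612%, 0.00348% and 0.00756% on days 266, 393 and 553.

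Across all members the day 32 share and the mean later T share were nearly unrelated (Spearman's rho of 0.04 over 525 barcodes, a description). Of these barcodes 337 were in no later T library and are tied at 0. With the members divided into 5 groups of equal size by their day 32 count, the share listed in a later T library was 24.8% in the group with the lowest counts, then 45.7%, 39.0%, 34.3% and, with the highest counts, 35.2%. For later B the shares of the same groups were 43.8%, 49.5%, 61.0%, 62.9% and 58.1%. The 31 members with under 1000 reads stood lowest, with 4 (12.9%) listed in later T and 6 (19.4%) in later B. The 17 members above the gap in counts had 7 (41.2%) listed in later T, and 16 (94.1%) in later B.

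Members shared with another lineage at day 32 were listed later more often than members listed in T alone on that day. Of the 278 shared members, 135 (48.6%) were listed in later T, against 53 of 247 (21.5%) members without another day 32 lineage. For later B the figures were 197 (70.9%) against 92 (37.2%), for later Gr 58 (20.9%) against 14 (5.67%), and for later Mono 43 (15.5%) against 10 (4.05%). The shared members were ahead on 8 of 8 later T days and 7 of 7 later B days, and in Gr and Mono at days 119, 187 and 266. After that at most 1 member was listed in any Gr or Mono library. The share listed in later T was 42.8% for members in 1 other day 32 lineage, 52.3% for 2 and 67.7% for all 3, with later B at 62.3%, 78.4% and 93.5%. The median day 32 T count was 3355 in members listed in T alone and 3517 in shared members. This split was made after the values were seen and was not tested. It is given for the members only, so it is not read as particular to them. The number of cells behind each barcode was not measured, and its part in the split was not tested.

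More members were listed in later B libraries than in later T libraries. 289 of 525 (55.0%) were listed in at least 1 later B library, beside 63.6% of all barcodes, while 146 members (27.8%) were in both later T and later B, beside 26.2% of all barcodes. 143 (27.2%) were in B and not T, beside 37.4%, and 42 (8%) in T and not B, beside 12.9%. Members listed in B made up 19.6%, 28.0%, 17.3%, 19.2%, 23.8%, 6.86% and 16.2% of the 525 on days 119, 187, 266, 365, 393, 494 and 553 in order. The shares of all barcodes on these days were close, at 18.8%, 30.3%, 20.2%, 18.7%, 26.2%, 7.42% and 17.9%. B libraries list more barcodes than T libraries on most days, and as a part of each list the members were alike in both, at 1.01% to 1.23% of the later B lists and 0.883% to 1.18% of the later T lists. They were 1.18% of all barcodes in the table. Over the 20 libraries after day 32 that list at least 1000 barcodes, the members were 0.883% to 1.23% of the list.

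Members held a larger share of later B reads than of later T reads. The B values were 1.21%, 1.09%, 0.891%, 1.15%, 1.08%, 1.29% and 0.708% at days 119, 187, 266, 365, 393, 494 and 553, all above the highest later T value of 0.651%. The most abundant barcodes of the later T libraries, none of them members, fill much of those libraries. How much of the difference between the B and T shares goes with this was not tested. bc148 and bc131 had the highest mean later B shares, 0.0475% ± 0.0283 and 0.0472% ± 0.0274 (SD over days, n = 7), and both were listed in 7 of 7 later B libraries. bc148 rose above 0.1% once, with 0.104% at day 494. bc264 had the highest B value of any member, 0.118% at day 494, and was listed at 0 in B at days 119 and 266.

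Few members were listed in later Gr and Mono libraries, and almost none from day 365. 72 members (13.7%) were listed in a later Gr library beside 14.6% of all barcodes, and 53 (10.1%) in a later Mono library beside 11.6%. In Gr 21 members were listed at day 119, 52 at day 187 and 56 at day 266, with 0.160%, 0.771% and 0.861% of reads, and none at days 365, 494 and 553. In Mono 10, 28 and 41 members were listed on the first 3 of these days, with 0.0599%, 0.279% and 0.371% of reads, then 1 at day 365 and none at days 494 and 553. At days 119, 187 and 266 the Gr counts were 4.00%, 9.90% and 10.7% of the members, beside 4.53%, 10.6% and 11.0% of all barcodes. The Mono counts were 1.90%, 5.33% and 7.81% of the members, beside 1.82%, 6.93% and 8.26%. The Gr and Mono libraries from day 365 list 12 to 197 barcodes in all, so few small clones of any kind are listed there. Of the 82 members with later Gr or Mono counts, 79 (96.3%) were also listed in later T or B, beside 91.8% of all barcodes with such counts.

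The members with the most later myeloid reads were largely those with later B reads. In Gr, bc205 held 0.0157%, 0.0532% and 0.0632% at days 119, 187 and 266, and bc131 held 0.0130%, 0.0498% and 0.0524%. bc252 reached 0.0634% in Gr at day 266, the highest Gr value of any member after day 32, and bc355 0.0457%. In Mono, bc148 reached 0.0363% at day 187, and bc205 held 0.0061%, 0.0213% and 0.0238% at days 119, 187 and 266. bc205, bc131 and bc148 were each listed in all 7 later B libraries, and in 4, 6 and 4 of the 8 later T libraries. bc252 was listed in 1 later T library and bc355 and bc217 in none, though all 3 were in T at day 32 with 0.223%, 0.230% and 0.404%.

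Few members were found everywhere. bc119 was listed in 20 of the 34 libraries after day 32, and bc131, bc185 and bc324 in 19 each. 34 members (6.48%) were listed in T, B, Gr and Mono after day 32, beside 6.52% of all barcodes. 39 members (7.43%) were listed among these 4 lineages in T alone, beside 12.3%, and 126 (24.0%) in B alone, beside 32.8%. 191 members (36.4%) were listed in no library after day 32, beside 22.1% of all barcodes, which can be in the table through later libraries alone. 133 of the 191 (25.3% of the members) were in no library but T of day 32, bc155 and bc32796 among them, and 39.9% of all barcodes were in 1 library. No member was listed in EOS at day 494 or CD34p at day 553.

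Barcodes that first appeared in T at day 119 serve as the comparison set. They are the 8354 barcodes listed in T at day 119 and not at day 32, and both sets were followed in libraries after day 119, which chose neither. The sets are not matched in time. By choice all of the day 119 set was listed in T at day 119, nearer the later days, against 96 (18.3%) of the day 32 set. How much of the differences below goes with this choice was not tested. In later T libraries 7.51% ± 3.67 of the day 32 barcodes were listed, against 17.8% ± 6.31 of the day 119 barcodes (SD over days, n = 7), a difference of -10.3 percentage points (SD 2.81, two-sided exact permutation p = 0.0156, 0.0625 when adjusted). The day 32 set was lower on 7 of 7 days. In B it was 18.6% ± 7.23 against 28.9% ± 8.27, a difference of -10.3 points (SD 1.31, n = 6, exact permutation p = 0.0312, 0.0625 when adjusted), and it was lower on 6 of 6 days. In Gr the difference was -3.39 points (4.11% against 7.50%, n = 5, exact permutation p = 0.0625, adjusted p = 0.0625) and in Mono -3.01 points (2.67% against 5.67%, n = 5, exact permutation p = 0.0625, adjusted p = 0.0625), each lower on 5 of 5 days. The Gr difference was -2.11 points without day 187. Each test flips the signs of the daily differences, and adjustment was by Benjamini-Hochberg over 4 lineages. The raw p-values are the smallest that 7, 6 and 5 days allow, and no difference passed 0.05 after adjustment, which this design cannot reach.

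The lower rate of listing was not found for the day 32 barcodes also listed in T at day 119. Limiting the set in this way selects by the count at day 119 as well as by day. These cannot be told apart here. When the day 32 set was limited to its 96 barcodes that were also listed in T at day 119, 18.2% of them were listed in later T libraries against 17.8% of the day 119 barcodes, a difference of 0.34 points (exact permutation p = 0.891, adjusted p = 0.891, n = 7). In B the difference turned to 5.69 points (34.5% against 28.9%, exact permutation p = 0.125, adjusted p = 0.5, n = 6), in Gr to 0.21 and in Mono to 0.78 points. These 96 barcodes had been listed in T on 2 days and the comparison set on 1. By this measure the day 32 barcodes still listed in T at day 119 did not differ detectably from the barcodes that were new there, and the lower rate of the whole set came with the barcodes not listed at day 119. How far a day 32 barcode was missing at day 119 because it was below the limit was not tested.

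In reads the day 32 barcodes were much smaller than the day 119 set. The mean share per barcode in later T libraries was 0.000709% ± 0.000197 for the day 32 set and 0.00876% ± 0.000668 for the day 119 set (SD over days, n = 7), a difference of -0.00805 points (exact permutation p = 0.0156, adjusted p = 0.0625) and lower on 7 of 7 days. It was 0.00197% against 0.00525% in B (n = 6, exact permutation p = 0.0312, adjusted p = 0.0625), 0.000622% against 0.00964% in Gr (n = 5, exact permutation p = 0.0625, adjusted p = 0.0625) and 0.000249% against 0.0109% in Mono (n = 5, exact permutation p = 0.0625, adjusted p = 0.0625).

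A small part of the day 119 set carried much of this. 45 of its barcodes had 1% of reads or more in at least 1 library, among them bc7, bc8, bc9 and bc10, and these 45 held a mean of 48.3% of T reads after day 119. bc10, for example, held 6.26% of T reads at day 187. On that day bc7, bc8 and bc9 held 6.96%, 6.45% and 6.28%, and they were also alike in Gr at day 119, with 11.1%, 10.7% and 10.5%. The 45 are counted as barcodes, and whether some of them mark the same cells was not tested. Among the day 32 barcodes only bc87 reached 1% in any library, and that was in T at day 32. Without all barcodes that reached 1%, the mean share per barcode in later T was 0.000710% for the day 32 set and 0.00300% for the day 119 set, a difference of -0.00229 points, still lower on all 7 days (exact permutation p = 0.0156, adjusted p = 0.0625). The difference without them was -0.00181 points in B, -0.000680 in Gr and -0.000331 in Mono, the last 2 with an exact permutation p of 0.125 before and after adjustment. Against day 119 barcodes listed at 0 in B, Gr and Mono of day 32 it was -0.00280 points in T, -0.000888 in B, -0.000364 in Gr and -0.000177 in Mono. A further comparison put the 96 barcodes that were also listed in T at day 119 in place of the whole day 32 set. Its difference was -0.00674 points in T (0.00203% against 0.00876%), -0.00831 in Gr and -0.0102 in Mono. For T the exact permutation test gave 0.0156, or 0.0625 after adjustment. In B the difference was -0.000609 points, with an exact permutation p of 0.719 before and after adjustment. 9 of 525 day 32 barcodes reached 0.02% in a T library after day 119, against 754 of 8354 day 119 barcodes. These counts have no share over all barcodes beside them, and the day 119 set was chosen by its listing in T at day 119.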

How the data were processed

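Per the labels' protocols, 200 ng of DNA and 28 cycles of PCR were used for each library. The authors deposited 1 table of read counts for 44423 sequences of 50 bases in 38 libraries. The unit was taken from the values. The counting program and its minimum count were not given in the sources used here. A Clopper-Pearson interval at 95% covers counting error only: without molecular identifiers, PCR reads are not independent.

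Percentages of reads use the column sums. The members and comparison set were chosen with earlier results of these data known. Two-sided exact sign-flip permutation tests compared both sets over the days of a lineage, with both measured in the same library. They take serial days of 1 animal as units, and a p-value measures only the spread between these days. 2 measures in 4 lineages gave 8 tests. No test of single barcodes was made. The computations were tested on simulated data. Tools were Python 3.11.15, pandas 2.3.3, numpy 2.4.6 and scipy 1.17.1.

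Named were the 5 members highest in T at day 32, the 8 highest by mean share in later T, the 4 highest each in later B, Gr and Mono, the 4 listed in most later libraries, the member with the lowest count, and the 4 day 119 barcodes highest in later T. The alternatives are given in the closing section.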

Additional observations from a re-analysis of the deposited data

Results flagged for a closer look

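23 series of values over days were checked for a day far from the others, and chance flags about 1 in 20. The members were 0.883% of the T list at day 494, the lowest of 8 later T days, in the T library with the fewest reads (766039). The difference in mean share per barcode in B was -0.00594 points at day 553, far below the other 5 days.

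6 members were listed in nRBC at day 393 and none in the other 4 nRBC libraries. They made up 1.14% of the 525 members, against 0.826% of the day 119 barcodes and 0.452% of all barcodes. They were 2.99% of the 201 barcodes of that library and held 0.0820% of its reads. Each of these member values stands apart from the 0 of the other days. That library lists the most barcodes of the 5, against 9 to 30 in the others. The 6 were bc217 (1337 reads, 0.0351%), bc613 (666 reads), bc934 (460 reads), bc1595 (318 reads), bc1462 (230 reads) and bc1301 (109 reads), named after their values were seen, except bc217. bc217, bc934 and bc1301 were listed in no later T library.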

How the results depend on the processing

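Limiting the day 32 set to the 96 barcodes also listed in T at day 119 turned the difference in percent listed to 0.340 points in T, 5.69 in B, 0.208 in Gr and 0.784 in Mono. With barcodes that reach 1% in any library also left out, an alternative added after seeing the data, the difference in mean share per barcode turned to 0.000862 points in B, 2.15e-05 in Gr and 9.86e-05 in Mono, and was -0.000974 in T. The cause was not tested. The other alternatives kept the direction of each difference they were run on, and none passed 0.05 after adjustment. Run on all 8 differences were leaving out each day, only day 119 barcodes listed at 0 in B, Gr and Mono of day 32, and a minimum of 0.05% of reads in the choosing library. Listing at 0.02% or more was run on the 4 differences in percent listed, and leaving out barcodes that reach 1% and log2 ratios with 0.0001% added on the 4 in mean share. Requiring libraries that list at least 250 barcodes was added after seeing the data. It left 2 days in Gr and in Mono, with differences of -8.02 and -6.76 points. Without day 187 the difference in percent listed in Gr was -2.11 points, the lowest in size of -4.19 to -2.11 over days left out. The ranges were -11.0 to -9.86 in T, -10.71 to -10.01 in B and -3.74 to -2.03 in Mono. Size was less stable: in T the difference in percent listed was -3.49 points with listing at 0.02% and -86.8 points with the minimum in the choosing library, which leaves 494 and 94 barcodes. Listing at 0.02% lowered the overlap of members at day 32 to 0.762% in B, 0.762% in Gr and 1.14% in Mono, and the share listed in a later T library to 1.90%, since most listed counts lie near the limit of 100 reads. The inverse Simpson index gave 445 effective barcodes in T of day 32. Merging sequences within 2 mismatches changed nothing, since no 2 sequences were that close. Shares below the limit cannot be seen, and it is highest in the T library of day 494. No paired analysis by replicate number was possible because the labels give none, and days were matched instead.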
